A study of Mus musculus with 12 samples.

Results

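The transforming growth factor beta (TGF-beta) ligands, their receptors and a set of Smad proteins were followed in 12 RNA-seq libraries of the mouse cell lines C18-4 and TM4. The members were the 10 genes Tgfb1, Tgfb2, Tgfb3, Tgfbr1, Tgfbr2, Tgfbr3, Smad2, Smad3, Smad7 and Skil, chosen by gene symbol from the 17995 genes of the deposited table, and all 10 were in the table. C18-4 is an established mouse line described as spermatogonial stem cells, and TM4 is an established mouse line described as Sertoli cells, the somatic cells that nurse germ cells in the seminiferous tubule. In each line, cultured cells received either a mixture of short hairpin RNAs against different positions of the M5 muscarinic acetylcholine receptor gene (shM5) or a control hairpin (shNC), with 3 libraries for each of the 4 groups. The labels give the strain of origin as IRC for every library. The study asked what the loss of M5 did to gene expression in germ cells and Sertoli cells.

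TGF-beta is secreted in a latent form held by its own propeptide and by latent TGF-beta binding proteins, and has to be released before it can signal. The active dimer binds the type II receptor TGFBR2, which recruits and phosphorylates the type I receptor TGFBR1, and the co-receptor betaglycan (TGFBR3) presents ligand, TGF-beta2 above all, to the type II receptor. The type I receptor phosphorylates SMAD2 and SMAD3, which enter the nucleus with SMAD4, while SMAD7 blocks the activated receptor and SnoN, the product of Skil, represses Smad-driven transcription. In the testis, TGF-beta3 is known for its action on the Sertoli cell tight junctions of the blood-testis barrier.

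Expression was given as reads per kilobase of gene and library size (RPKM), a scale that allows levels to be compared between genes. Summed RPKM lay between 506413 and 540231 per library. The TM4 libraries did not separate by label. TM4 shNC replicate 3 differed from TM4 shNC replicates 1 and 2 by a root mean square log2 difference of 0.640 and 0.642, but from the 3 TM4 shM5 libraries by 0.202 to 0.257. In C18-4 cells, replicate 3 of each group stood apart, at 0.418 and 0.438 from its shNC partners and at 0.376 and 0.388 from its shM5 partners, while replicates 1 and 2 lay 0.2001 apart within shNC and 0.201 apart within shM5. Chrm5, the targeted gene, was listed at 0 RPKM in 10 of 12 libraries and at 0.01 in the other two, so its mRNA could not be used to check the labels. Markers followed the labelled cell types only in part. In C18-4 cells, 3 of 12 germ cell markers averaged above 1 RPKM (Etv5, Id4 and Uchl1) and Ddx4, Dazl, Zbtb16 and Kit did not exceed 0.05 RPKM, while 5 of 11 Sertoli cell markers averaged above 1 RPKM (Wt1, Gata4, Clu, Rhox5 and Kitl). Among the Sertoli cell markers in C18-4 cells, Wt1 was at 53.9 to 72.3 RPKM, and Sox9, Amh, Cldn11 and Gata1 did not exceed 0.16 RPKM. In TM4 cells, Wt1 did not exceed 0.15 RPKM and Amh 0.19 RPKM, and 4 of 11 Sertoli cell markers averaged above 1 RPKM. These were Sox9 at 1.11 to 1.74, Gata4 at 4.62 to 12.5, Kitl at 18.4 to 49.5 and Gdnf at 2.52 to 9.67 RPKM. Of the germ cell markers, 2 of 12 averaged above 1 RPKM in TM4 cells, Etv5 and Bcl6b. Etv5 was higher there, at 5.98 to 7.49 RPKM, than in C18-4 cells, at 1.63 to 2.29 RPKM. The summed level of 6 peritubular and fibroblast markers was 312 to 448 RPKM in C18-4 and 207 to 463 RPKM in TM4 cells. Most of it came from Col1a1 (287 to 386 and 131 to 291 RPKM) and Acta2 (15.9 to 61.8 and 63.3 to 194 RPKM). Of these 6 markers, 4 averaged above 1 RPKM in C18-4 and 3 in TM4 cells, and Myh11 and Thy1 did not exceed 0.07 and 0.15 RPKM in either line. None of 6 Leydig cell markers averaged above 1 RPKM in either line, and 1 of 5 macrophage markers did so in C18-4 and 2 of 5 in TM4 cells. The part of other cell types in the results was not tested. The cells are therefore called here by the names of the lines only.

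**Figure D1:**
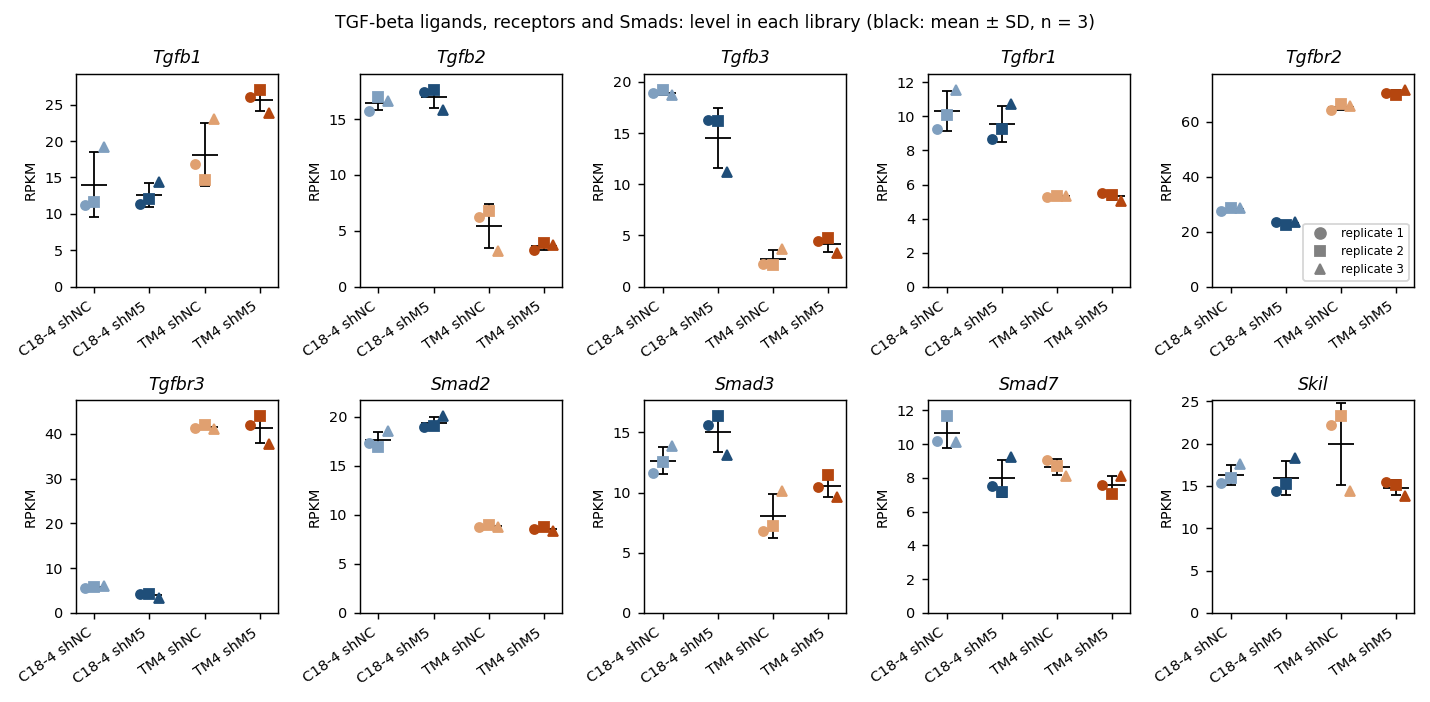
Level of each of the 10 members (RPKM, linear axis from 0) in the 12 libraries, with the group mean and SD in black (n = 3) and a marker shape for each replicate number. Tgfb2 and Tgfb3 sit higher in C18-4 and Tgfbr2 and Tgfbr3 higher in TM4, and TM4 shNC replicate 3 lies near the TM4 shM5 libraries for Tgfb1, Tgfb2, Smad3 and Skil.

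The 3 ligands were all expressed, in a different mixture in each line. Tgfb1 (Entrez gene 21803), the most widely expressed ligand, was at 11.2, 11.7 and 19.2 RPKM in C18-4 shNC and at 11.3, 12.04 and 14.4 RPKM in C18-4 shM5 libraries 1, 2 and 3. In TM4 cells it was at 16.8, 14.6 and 23.0 RPKM in shNC and at 26.1, 27.1 and 23.9 RPKM in shM5 libraries. Replicate 3 was the highest of the 3 libraries in both C18-4 groups and in TM4 shNC. The ranges of the shNC and shM5 groups overlapped in C18-4 cells, while all 3 TM4 shM5 libraries lay above all 3 TM4 shNC libraries. Tgfb2 (21808), the ligand that depends most on betaglycan, was at 15.8, 16.9 and 16.7 RPKM in C18-4 shNC and at 17.4, 17.6 and 15.9 RPKM in C18-4 shM5 libraries. In TM4 cells Tgfb2 was at 6.27, 6.77 and 3.16 RPKM in shNC and at 3.26, 3.87 and 3.70 RPKM in shM5 libraries. The shNC and shM5 ranges of Tgfb2 overlapped in both lines, and the TM4 shNC range was wide because replicate 3 was lower than every other library. Tgfb3 (21809), the ligand tied to the blood-testis barrier, was at 19.0, 19.2 and 18.7 RPKM in C18-4 shNC and at 16.3, 16.2 and 11.2 RPKM in C18-4 shM5 libraries. In TM4 cells Tgfb3 was at 2.18, 2.15 and 3.70 RPKM in shNC and at 4.43, 4.78 and 3.31 RPKM in shM5 libraries. All 3 C18-4 shM5 libraries lay below all C18-4 shNC libraries for Tgfb3, whereas in TM4 cells the groups overlapped through shNC replicate 3 and shM5 replicate 3.

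The ligand mixture is shown as the share of each mRNA in the summed RPKM of the 3 ligands. Tgfb1 made up 24.4% to 35.2% of the sum in C18-4 and 62.1% to 77.3% in TM4 libraries. Tgfb2 made up 34.3%, 35.4% and 30.5% in C18-4 shNC and 38.7%, 38.5% and 38.3% in C18-4 shM5 libraries, a mean difference of 5.06 percentage points with no overlap (two-sided exact permutation p = 0.1, n = 3 per group, the smallest p that 3 against 3 libraries can give). In TM4 cells the share of Tgfb2 was 24.8%, 28.8% and 10.6% in shNC against 9.64%, 10.8% and 11.96% in shM5 libraries (exact permutation p = 0.3, n = 3). Thus 2 of the 3 TM4 shNC libraries held more Tgfb2 than any shM5 library, and shNC replicate 3 did not. The summed ligand level was 45.9, 47.9 and 54.5 RPKM in C18-4 shNC and 45.02, 45.8 and 41.4 RPKM in C18-4 shM5 libraries, and in TM4 cells 25.3, 23.5 and 29.9 RPKM in shNC and 33.8, 35.7 and 30.9 RPKM in shM5 libraries. The sum was lower in all 3 shM5 libraries of C18-4 cells and higher in all 3 of TM4 cells, each with exact permutation p = 0.1 (n = 3 per group).

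**Figure D2:**
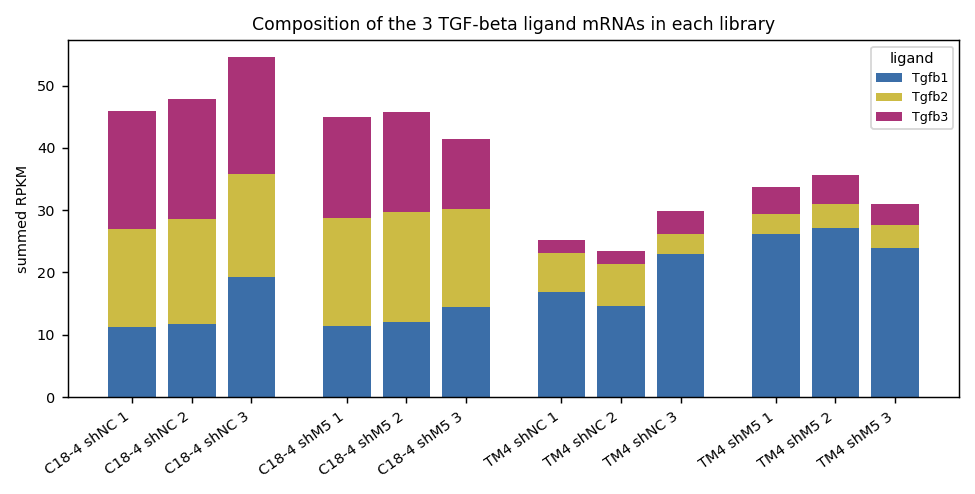
Stacked bars of Tgfb1, Tgfb2 and Tgfb3 (RPKM) in each of the 12 libraries, each bar 1 library. Tgfb1 takes 62.1% to 77.3% of the ligand sum in TM4 but 24.4% to 35.2% in C18-4 libraries, and the Tgfb2 segment of TM4 shNC replicate 3 is as short as in the shM5 libraries.

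Promoters are shown for Tgfb1 and Tgfb2, the ligands whose levels varied in opposite directions among the TM4 libraries, and for Tgfbr2, whose shM5 libraries lay on opposite sides of shNC in the lines. RefSeq promoter windows (build GRCm38.p6), matched by symbol, were used for 5 of the 10 members, Tgfb1, Tgfb2, Tgfbr1 (with 2 windows), Tgfbr2 and Smad3. Those of Tgfb3, Tgfbr3, Smad2, Smad7 and Skil are not used here. The 250 bases before the start of each gene are printed 5′ to 3′ on the strand of the gene, with every match to a searched motif in capitals. The motifs, searched on both strands, were the Smad box CAGAC or GTCTG, the GC box GGCGGG or CCCGCC, the TATA box TATAAA or TTTATA, the E-box CACGTG and the AP-1 site TGANTCA, and no matches overlapped.
Tgfb1 (chr7:25686752-25687001, plus strand): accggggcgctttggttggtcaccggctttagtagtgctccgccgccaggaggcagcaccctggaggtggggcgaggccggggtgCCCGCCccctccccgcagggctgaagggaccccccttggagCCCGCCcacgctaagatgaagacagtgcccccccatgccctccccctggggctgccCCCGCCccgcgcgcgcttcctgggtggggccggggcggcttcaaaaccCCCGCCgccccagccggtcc
Tgfb2 (chr1:186705990-186706239, minus strand): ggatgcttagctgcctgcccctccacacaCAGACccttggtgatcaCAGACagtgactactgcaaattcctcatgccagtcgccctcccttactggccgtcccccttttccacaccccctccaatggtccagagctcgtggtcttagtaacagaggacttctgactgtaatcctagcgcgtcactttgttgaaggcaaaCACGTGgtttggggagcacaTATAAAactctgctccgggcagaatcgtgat
Tgfbr2 (chr9:116175364-116175613, minus strand): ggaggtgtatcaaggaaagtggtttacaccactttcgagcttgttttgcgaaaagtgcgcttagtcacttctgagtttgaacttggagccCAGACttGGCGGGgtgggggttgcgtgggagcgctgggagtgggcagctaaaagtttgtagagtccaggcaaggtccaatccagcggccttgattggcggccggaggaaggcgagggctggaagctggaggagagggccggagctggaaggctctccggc
The Tgfb1 window held 4 GC boxes and no Smad box, TATA box or E-box. The Tgfb2 window held 2 Smad boxes, 1 E-box and 1 TATA box and no GC box, and the Tgfbr2 window held 1 Smad box and 1 GC box. The Smad3 window held 1 GC box, and the Tgfbr1 windows held 4 GC boxes and 1 Smad box respectively. No AP-1 match was in any of the 6 windows. Among 32851 mouse promoter windows of this length, 42.2% held a Smad box, 32.5% a GC box, 12.4% a TATA box, 6.75% an AP-1 match and 6.02% an E-box. A match of letters is not a bound site.

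Tgfbr2 and Tgfbr3 were higher in TM4 and Tgfbr1 in C18-4 libraries. Tgfbr2 (21813), the ligand-binding receptor, was at 27.5, 28.6 and 28.6 RPKM in C18-4 shNC and at 23.7, 22.4 and 23.7 RPKM in C18-4 shM5 libraries. In TM4 cells it was at 64.2, 66.5 and 65.7 RPKM in shNC and at 70.5, 69.8 and 71.7 RPKM in shM5 libraries. The shM5 libraries of Tgfbr2 lay wholly below shNC in C18-4 and wholly above shNC in TM4 cells. Tgfbr3 (21814), betaglycan, was at 5.68, 5.84 and 6.12 RPKM in C18-4 shNC and at 4.24, 4.18 and 3.41 RPKM in C18-4 shM5 libraries, again with no overlap. In TM4 cells Tgfbr3 was at 41.4, 42.1 and 41.1 RPKM in shNC and at 42.0, 44.0 and 37.8 RPKM in shM5 libraries, where the groups overlapped. Tgfbr1 (21812), the signalling kinase, was at 9.29, 10.1 and 11.6 RPKM in C18-4 shNC and at 8.70, 9.28 and 10.7 RPKM in C18-4 shM5 libraries. In TM4 cells Tgfbr1 stayed within 5.06 to 5.49 RPKM over all 6 libraries, and the shNC and shM5 groups overlapped in both lines.

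The balance among the receptors followed these levels. The ratio of Tgfbr2 to Tgfbr1 was 2.2 to 2.96 in C18-4 libraries and 12.2 to 14.2 in TM4 libraries, and in TM4 cells it was higher in every shM5 library (12.8, 13.0 and 14.2) than in every shNC library (12.2, 12.5 and 12.3; exact permutation p = 0.1, n = 3). The ratio of Tgfbr3 to Tgfbr2 was 0.207, 0.205 and 0.214 in C18-4 shNC and 0.179, 0.187 and 0.144 in C18-4 shM5 libraries (exact permutation p = 0.1, n = 3). Betaglycan mRNA was thus lower relative to Tgfbr2 mRNA in each C18-4 shM5 library. In TM4 cells the Tgfbr3 to Tgfbr2 ratio was 0.645, 0.633 and 0.627 in shNC and 0.596, 0.630 and 0.527 in shM5 libraries, with overlap (exact permutation p = 0.2, n = 3).

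The receptor-regulated Smads were at 6.80 RPKM or more in every library. Smad2 (17126) was at 17.3, 16.9 and 18.5 RPKM in C18-4 shNC and at 18.95, 19.0 and 20.0 RPKM in C18-4 shM5 libraries. In TM4 cells Smad2 stayed between 8.31 and 8.94 RPKM in all 6 libraries. Smad2 was thus higher in each C18-4 shM5 library than in each C18-4 shNC library, and the TM4 groups overlapped. Smad3 (17127), which unlike SMAD2 binds DNA directly, was at 11.6, 12.5 and 13.8 RPKM in C18-4 shNC and at 15.6, 16.3 and 13.2 RPKM in C18-4 shM5 libraries. In TM4 cells Smad3 was at 6.80, 7.23 and 10.1 RPKM in shNC and at 10.4, 11.4 and 9.65 RPKM in shM5 libraries. The Smad3 groups overlapped in both lines, each time through a replicate 3 library. The ratio of Smad2 to Smad3 was 1.16 to 1.52 in C18-4 libraries, 1.29, 1.24 and 0.869 in TM4 shNC and 0.823, 0.768 and 0.861 in TM4 shM5 libraries (exact permutation p = 0.1 in TM4 cells, n = 3).

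The inhibitors of the pathway were at 7.06 RPKM or more in every library, and Skil lay above Smad2 and Smad3 in all TM4 libraries. Smad7 (17131), itself a gene that TGF-beta induces, was at 10.2, 11.7 and 10.1 RPKM in C18-4 shNC and at 7.51, 7.19 and 9.25 RPKM in C18-4 shM5 libraries. In TM4 cells Smad7 was at 9.06, 8.73 and 8.12 RPKM in shNC and at 7.57, 7.06 and 8.13 RPKM in shM5 libraries. The C18-4 shM5 libraries were all below shNC for Smad7, and the TM4 groups overlapped by 0.01 RPKM. Skil (20482) was at 15.4, 15.9 and 17.6 RPKM in C18-4 shNC and at 14.4, 15.2 and 18.3 RPKM in C18-4 shM5 libraries. In TM4 cells Skil was at 22.2, 23.2 and 14.4 RPKM in shNC and at 15.5, 15.2 and 13.8 RPKM in shM5 libraries. TM4 shNC replicate 3 lay among the shM5 libraries for Skil, below shM5 replicates 1 and 2, and the groups overlapped in both lines.

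Within a line, the members were ordered as follows by shNC mean. In C18-4 shNC cells, Tgfbr2 was highest at 28.2 ± 0.631 RPKM (SD, n = 3), followed by Tgfb3 at 19.0 ± 0.270 RPKM, and Tgfbr3 was lowest at 5.88 ± 0.223 RPKM, each clear of its neighbours in this order. In replicate 3, however, Tgfb1 at 19.19 RPKM lay above Tgfb3 at 18.69 RPKM. Between Tgfb3 and Tgfbr3 the order Smad2, Tgfb2, Skil, Tgfb1, Smad3, Smad7 and Tgfbr1 was made of neighbours whose 3-library ranges overlapped. In TM4 shNC cells, Tgfbr2 at 65.4 ± 1.18 RPKM and Tgfbr3 at 41.5 ± 0.497 RPKM led, and Tgfb3 was lowest in mean at 2.68 ± 0.886 RPKM. Skil overlapped with Tgfb1, and so did Smad2 with Smad7, Smad7 with Smad3, and Tgfb2 with Tgfbr1. In TM4 shNC replicate 3, Tgfb2 at 3.16 RPKM lay below Tgfb3 at 3.70 RPKM. By shNC mean, betaglycan was thus the lowest member in C18-4 and the second in rank in TM4 cells, and Tgfb3 held the opposite places. By shM5 mean, Tgfb3 was at rank 6 in C18-4 and rank 9 in TM4 cells.

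Between the lines, C18-4 cells had more Tgfb2, Tgfb3, Tgfbr1, Smad2 and Smad3 mRNA, and TM4 cells more Tgfbr2 and Tgfbr3 mRNA. For these 7 of 10 members the 6 C18-4 libraries did not overlap with the 6 TM4 libraries, as was so for 52.8% of the 11773 genes tested. The ratio of the 6-library means, C18-4 to TM4, was 4.89 for Tgfb3, 3.71 for Tgfb2, 2.12 for Smad2, 1.87 for Tgfbr1, 1.49 for Smad3, 0.378 for Tgfbr2 and 0.119 for Tgfbr3. A linear model of log2(RPKM + 0.1) over the 12 libraries (limma) was used to compare the shNC groups, and a gene was called where its adjusted p (Benjamini-Hochberg, over all genes tested) was below 0.05. Among the members 8 were called, against 65.6% of all genes tested, of which 6 were higher in C18-4 (40.0% of all genes) and 2 lower (25.6%). The log2 fold difference, C18-4 minus TM4, was 2.82 for Tgfb3 (SE 0.220), 1.66 for Tgfb2 (SE 0.224), 0.98 for Smad2 (SE 0.0755), 0.94 for Tgfbr1 (SE 0.111) and 0.66 for Smad3 (SE 0.151, adjusted p = 0.0023). It was -2.80 for Tgfbr3 (SE 0.0991) and -1.21 for Tgfbr2 (SE 0.0593). The share of members called was near that of all genes, and among the members Tgfb3 (adjusted p = 4.21e-07) and Tgfbr3 (adjusted p = 3.17e-10) had the largest differences between the shNC groups, in opposite directions. Between the shM5 groups, Tgfb2 at 2.204 lay above Tgfb3 at 1.77, and Tgfbr3 was at -3.36.

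The other 3 members depended on the scaling. The median log2 difference of all genes was 0.15 in this comparison and 0.00 after median-ratio scaling of the libraries, which moved the called genes from 4711 higher and 3014 lower to 3926 higher and 3806 lower. The 7 members named above were called in the same direction after that scaling. Smad7 was called at 0.30 (adjusted p = 0.0403) but not after scaling, at 0.15 (adjusted p = 0.256), nor between the shM5 groups, at 0.07 (adjusted p = 0.644). Its call was also lost with a replicate block (adjusted p = 0.0548) and without C18-4 shNC replicate 1 or 2, any single TM4 shNC library, or replicate 1 of either shM5 group (adjusted p from 0.0517 to 0.148). Tgfb1 was not called at -0.39 (adjusted p = 0.126), but was called lower in C18-4 after scaling, at -0.53 (adjusted p = 0.0282), without C18-4 shNC replicate 3, at -0.63 (adjusted p = 0.00906), and between the shM5 groups, at -1.03 (adjusted p = 0.00121). Skil was not called at -0.26 (adjusted p = 0.182), was called at -0.41 after scaling (adjusted p = 0.0408) and at -0.48 without TM4 shNC replicate 3 (adjusted p = 0.00195), and stood at 0.10 between the shM5 groups (adjusted p = 0.62).

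**Figure D3:**
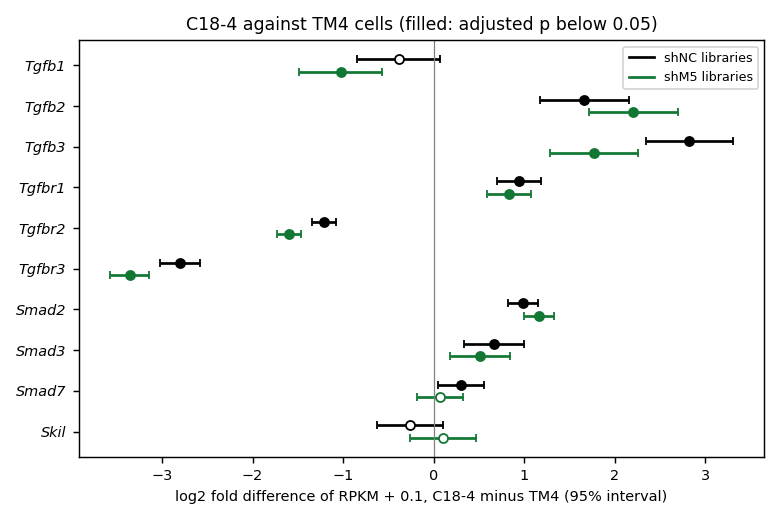
Log2 fold difference of each member, C18-4 minus TM4 (x axis, log2 of RPKM + 0.1, bars are 95% intervals), in the shNC libraries (black) and in the shM5 libraries (green), filled where the adjusted p was below 0.05. Tgfb3 (2.82) and Tgfbr3 (-2.80) lie at the opposite ends of the shNC comparison and Tgfb2 (2.204) and Tgfbr3 (-3.36) at those of the shM5 comparison, and Tgfb1, Smad7 and Skil lie nearest to 0 in the shNC comparison.

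In C18-4 cells, both ligand-binding receptors Tgfbr2 and Tgfbr3, the ligand Tgfb3 and the inhibitor Smad7 were lower in every shM5 library than in every shNC library, and Smad2 was higher. These 5 of 10 members did not overlap, against 18.9% of the 11611 genes tested. The members were chosen with earlier results of these data known, so their share is no test of the group. Fitted on log2(RPKM + 0.1) over the 6 libraries, the log2 fold change, shM5 minus shNC, was -0.57 for Tgfbr3 (SE 0.123, adjusted p = 0.123), -0.28 for Tgfbr2 (SE 0.0687, adjusted p = 0.161), -0.42 for Smad7 (SE 0.125, adjusted p = 0.242) and -0.40 for Tgfb3 (SE 0.151, adjusted p = 0.347). No member was called, 4 members had an unadjusted p below 0.05, and 0.586% of all genes were called. Same-numbered C18-4 libraries deviated together, with r of 0.439, 0.409 and 0.631 over genes. Replicates 1 and 2 also did so across numbers (0.341 and 0.345), and the sample titles state no pairing. With the replicate number as a block in limma these 4 members were called, Tgfbr3 with an adjusted p of 0.0157, Tgfbr2 of 0.0199, Smad7 of 0.0428 and Tgfb3 of 0.0440. All 4 called members were lower, while 11.9% of all genes were called with the block, 6.73% lower and 5.21% higher. In linear terms the group means went from 5.88 ± 0.223 to 3.94 ± 0.463 RPKM for Tgfbr3, from 28.2 ± 0.631 to 23.2 ± 0.730 RPKM for Tgfbr2, from 10.7 ± 0.872 to 7.98 ± 1.11 RPKM for Smad7 and from 19.0 ± 0.270 to 14.5 ± 2.92 RPKM for Tgfb3 (SD, n = 3 per group).

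The calls in C18-4 cells differed between the fits. With any single library left out, either replicate 3 library included, no member was called. In a model of all 12 libraries, which shares 1 estimate of spread between the lines, Tgfbr3 (adjusted p = 0.0201) and Tgfbr2 (adjusted p = 0.0480) were called, with 1.30% of all genes. Without replicate 3 of both groups, 5 members were called, with 26.2% of all genes. They were Tgfbr3 at -0.44 (adjusted p = 0.00724), Tgfbr2 at -0.28 (adjusted p = 0.00434), Tgfb3 at -0.23 (adjusted p = 0.0121), Smad7 at -0.56 (adjusted p = 0.00150) and Smad3, the member that was higher, at 0.40 (adjusted p = 0.00227). The log2 change of Tgfbr2 was -0.28 with all libraries, in fits that share the same difference of means, and without replicate 3 of both groups. It ranged from -0.30 to -0.25 with single libraries left out. That of Tgfb3 was larger with replicate 3, whose shM5 library held 11.2 RPKM. With all libraries, Smad3 was at 0.24 (95% interval -0.03 to 0.51, adjusted p = 0.467), and at an adjusted p of 0.151 with the block. Smad2 was at 0.14 (-0.04 to 0.32, adjusted p = 0.559, and 0.157 with the block). Tgfb1 at -0.12 (-0.62 to 0.38, and 0.03 without replicate 3 of both groups), Tgfbr1 at -0.11 (-0.40 to 0.18), Tgfb2 at 0.04 (-0.15 to 0.24) and Skil at -0.04 (-0.30 to 0.23) were not called in any of these fits. The labels do not say that libraries came from separate cultures, so these p-values measure the spread between libraries, which may be technical, and in bulk RNA fewer cells of a kind and less RNA per cell cannot be told apart.

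In TM4 cells, Tgfb1 and Tgfbr2 were higher in every shM5 library than in every shNC library, 2 of 10 members against 26.8% of the 11016 genes tested. The log2 fold change was 0.65 for Tgfb3 (SE 0.252), 0.52 for Tgfb1 (SE 0.172), 0.40 for Smad3 (SE 0.168), -0.50 for Tgfb2 (SE 0.290) and -0.40 for Skil (SE 0.190), with adjusted p of 0.192, 0.192, 0.192, 0.256 and 0.203. Tgfbr2 was at 0.11 (SE 0.0612, adjusted p = 0.237). No member was called by limma, as 0% of all genes were, while an unadjusted p below 0.05 was seen for 2 members (Tgfb1 and Tgfb3) and for 2866 genes. The calls turned on shNC replicate 3, which lay near the shM5 libraries over all genes and for Tgfb1, Tgfb2, Tgfb3, Smad3 and Skil among the members.

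Without TM4 shNC replicate 3, which leaves 2 shNC and 3 shM5 libraries, 7 of 10 members and 67.4% of all genes were called, so that the share of members was near that of all genes. Tgfb3 rose by 0.90 (SE 0.158, adjusted p = 0.0015), Tgfb1 by 0.71 (SE 0.0791, adjusted p = 0.000139), Smad3 by 0.57 (SE 0.0854, adjusted p = 0.000637) and Tgfbr2 by 0.11 (SE 0.0399, adjusted p = 0.036) on the log2 scale. These 4 higher members compare with 36.5% of all genes called higher, and the 3 lower ones with 30.9% called lower. Tgfb2 fell by 0.84 (SE 0.101, adjusted p = 0.00021), Skil by 0.62 (SE 0.0651, adjusted p = 0.000105) and Smad7 by 0.23 (SE 0.0790, adjusted p = 0.0335). The shNC ligand levels thus stood on opposite sides of shM5, with Tgfb1 below and Tgfb2 above. Tgfbr1 at 0.00 (95% interval -0.18 to 0.19), Smad2 at -0.05 (-0.20 to 0.10) and Tgfbr3 at -0.02 (-0.17 to 0.14) were not called. That library was left out because of its place among these same data, and what set it apart was not tested.

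**Figure D4:**
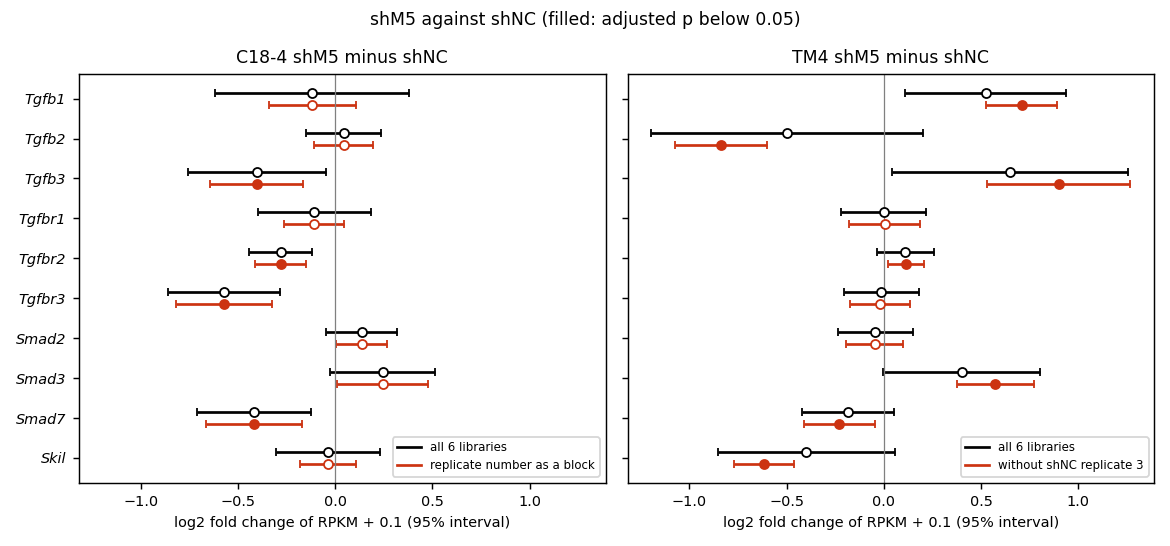
Log2 fold change, shM5 minus shNC, of each member (x axis, log2 of RPKM + 0.1, bars are 95% intervals) in C18-4 (left) and TM4 cells (right), from all 6 libraries of the line (black) and, in red, with the replicate number as a block (C18-4) or without shNC replicate 3 (TM4), filled where the adjusted p was below 0.05. In C18-4 cells the 4 filled points, Tgfb3, Tgfbr2, Tgfbr3 and Smad7, lie below 0, and in TM4 cells 7 points are filled only after the library is left out. The block uses the numbers in the sample titles, which state no pairing.

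The shM5 effects were compared between the lines for all members. Fitted log2 changes had opposite signs in C18-4 and TM4 cells for Tgfb1 (-0.12 and 0.52), Tgfb2 (0.04 and -0.50), Tgfb3 (-0.40 and 0.65), Tgfbr2 and Smad2 (0.14 and -0.04). None of these changes was called. For Tgfbr2 they were -0.28 in C18-4 (adjusted p = 0.161) and 0.11 in TM4 cells (95% interval -0.04 to 0.26, adjusted p = 0.237). Among these members only Tgfbr2 had no overlap of shM5 with shNC libraries in both lines. The difference of the effects, TM4 minus C18-4, was 0.39 for Tgfbr2 (SE 0.0839, 95% interval 0.21 to 0.57, adjusted p = 0.118), 0.56 for Tgfbr3 (SE 0.140, adjusted p = 0.142) and 1.05 for Tgfb3 (SE 0.311, adjusted p = 0.178). No member was called by limma, 3 had an unadjusted p below 0.05, and 0.102% of all genes were called. Tgfb1 was at 0.64 (SE 0.297, adjusted p = 0.244) and Tgfb2 at -0.54 (SE 0.317, adjusted p = 0.322). TM4 shNC replicate 3 was singled out by its place among these same data, so calls made without it are no independent test. Without TM4 shNC replicate 3, 6 members were called with 38.0% of all genes, namely Tgfbr2 at 0.39 (adjusted p = 0.00216), Tgfbr3 at 0.55 (adjusted p = 0.0111), Tgfb3 at 1.30 (adjusted p = 0.00219), Tgfb1 at 0.83 (adjusted p = 0.0348), Tgfb2 at -0.88 (adjusted p = 0.000536) and Skil at -0.58 (adjusted p = 0.00974). Smad2, Smad3, Smad7 and Tgfbr1 were not called with or without that library. Of 80 pathway list genes tested in this way, 0 were called with all libraries by limma (25 at an unadjusted p below 0.05) and 34 without that library.

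Within TM4 cells, over the 6 libraries, log2 levels of Tgfb1, Tgfb3 and Smad3 varied together, with Pearson r of 0.96 for Tgfb1 and Tgfb3, 0.95 for Tgfb1 and Smad3 and 0.98 for Tgfb3 and Smad3. Tgfb2 varied with Skil at r = 0.95, Tgfb1 varied against Tgfb2 and Skil, each at r = -0.92, and Smad7 varied against Tgfb3 at r = -0.95 and Smad3 at r = -0.93. In C18-4 cells the 5 pairs with the largest r in size were Tgfbr1 with Skil (0.93), Tgfb3 with Tgfbr3 (0.92), Tgfbr2 with Tgfbr3 and with Smad7 (each 0.90) and Tgfb1 with Tgfbr1 (0.89). These values describe 6 libraries that include both treatments and the libraries that stand apart.

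The 8767 genes that averaged 5 RPKM or more were searched. The genes most like each member over the 12 libraries, after the mean of each line was removed, were found by Pearson r. Sirpa (0.987) and Them6 (0.972) were most like Tgfb1, Slc25a44 (0.976) and Thbs2 (0.972) most like Tgfb2, and the collagen gene Col1a2 (0.978) with Rcn1 (0.966) most like Tgfb3. Col1a2 averaged 425 RPKM in TM4 and 0.157 RPKM in C18-4 cells. Its C18-4 levels of 0.08 to 0.19 RPKM also varied on the log2 scale, so its likeness rests in part on values near 0. Thbs2 averaged 435 and 0.00167 RPKM, so its likeness rests mainly on TM4 libraries. Abhd16a and Ankrd44 (each 0.967) were most like Tgfbr1, Gm46620 (0.941) and Gm40595 (0.936) most like Tgfbr2, and Spp1 (0.949) and Parm1 (0.936) most like Tgfbr3. Parm1 averaged 19.9 RPKM in C18-4 and 0 RPKM in TM4 cells, so its likeness rests on C18-4 libraries. Rufy2 (0.958) and Rit1 (0.934) were most like Smad2, Capn1 and Arhgef5 (each 0.968) most like Smad3, Spire1 (0.950) and Rnf19b (0.934) most like Smad7, and Osbpl8 and Zfp930 (each 0.985) most like Skil. The points share their libraries, and no p is given.

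The wider pathway was followed with 93 genes in 5 lists, of which 90 were in the table. In C18-4 cells, 74 were tested and 1 was called, the collagen gene Col3a1, which rose by 0.59 on the log2 scale (adjusted p = 0.0367), while 16 had an unadjusted p below 0.05. No list gene was called without replicate 1 or 2 of either group, or in the model of all 12 libraries. With the replicate block, 23 of 74 were called, 8 higher and 15 lower, or 31.1% against 11.9% of all genes. The lists were chosen with earlier results of these data known, so this share is no test of the pathway. The genes known to respond to TGF-beta or BMP gave 13 of these 23, among 24 tested, with 4 higher and 9 lower. Latency and activation genes gave 5 of 12, the other Smads and regulators 3 of 19, the other ligands and antagonists 2 of 12, and the other receptors 0 of 7. The median log2 change was 0.00 over the 74 genes, as over all genes, and -0.11 over the 10 members.

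List genes, responding genes and genes of the latency list alike, moved in both directions in C18-4 cells. With the block, the smooth-muscle actin gene Acta2 rose by 1.34 (adjusted p = 0.000608), the actin-associated Tagln by 0.93 (adjusted p = 0.000335) and Thbs1, an activator of latent TGF-beta, by 0.29 (adjusted p = 0.0120). Acta2, which was also in the peritubular marker list, was at 23.7, 19.8 and 15.9 RPKM in shNC and at 56.7, 61.8 and 34.6 RPKM in shM5 libraries. By contrast Lox, the collagen cross-linking enzyme, fell by 1.12 (adjusted p = 0.000464), the transglutaminase Tgm2 by 0.74 (adjusted p = 0.00893), the proteoglycan Bgn, of the latency list, by 0.53 (adjusted p = 0.00456), the metalloproteinase inhibitor Timp1 by 0.52 (adjusted p = 0.00878), the Snail factor Snai1 by 0.47 (adjusted p = 0.0120) and the AP-1 subunit Junb by 0.45 (adjusted p = 0.00287). Lox was at 113, 111 and 62.6 RPKM in shNC and at 47.0, 48.2 and 33.8 RPKM in shM5 libraries. Without overlap between groups, Acta2, Tagln and Col3a1 were higher and Lox, Tgm2, Bgn, Timp1, Snai1 and Junb lower in shM5, whereas the Thbs1 libraries overlapped, at 22.1 to 44.0 and 26.7 to 54.5 RPKM.

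**Figure D5:**
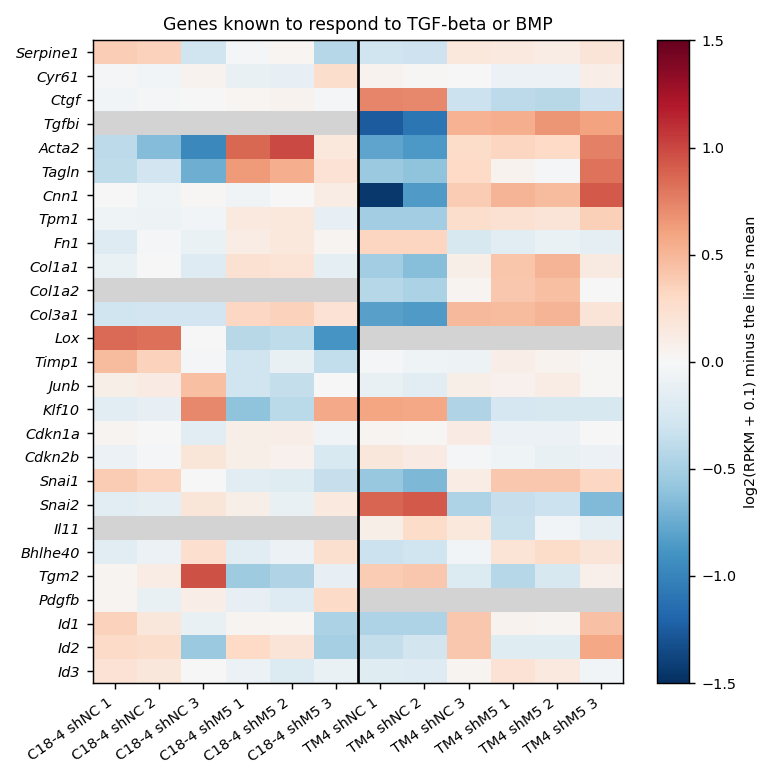
Log2(RPKM + 0.1) minus the mean of the line (colour, red above and blue below the mean) for 27 genes known to respond to TGF-beta or BMP (rows) in the 12 libraries (columns), with lines below a mean of 0.5 RPKM in grey. Acta2, Tagln and Col3a1 are redder and Lox bluer in the C18-4 shM5 columns, and TM4 shNC replicate 3 has the colours of the TM4 shM5 columns for Ctgf, Tgfbi, Snai2 and Klf10.

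In TM4 cells none of 74 list genes was called by limma, and 23 had an unadjusted p below 0.05. Without shNC replicate 3, 49 of 74 (66.2%) were called against 67.4% of all genes, 30 higher and 19 lower, so that the lists together did not stand above the background. By list these were 21 of 25 responding genes, 14 of 19 other Smads and regulators, 6 of 13 latency and activation genes, 6 of 9 other ligands and antagonists and 2 of 8 other receptors. With that library left out, the Smad corepressor Tgif1 fell by 1.18 (adjusted p = 1.30e-06), Ctgf by 1.10 (adjusted p = 1.18e-06), Klf10 by 0.83 (adjusted p = 5.11e-06) and Snai2 by 1.33 (adjusted p = 1.71e-05). Gdf15, a stress-induced member of the family, fell by 4.02 (adjusted p = 1.22e-05) and the BMP antagonist Grem1 fell by 1.79 (adjusted p = 1.22e-05). Emilin1, an inhibitor of TGF-beta processing, rose by 1.68 (adjusted p = 2.74e-06), Snai1 by 0.99 (adjusted p = 6.00e-06), Tpm1 by 0.78 (adjusted p = 1.05e-05) and Thbs1 by 0.67 (adjusted p = 1.52e-05). Ctgf shows the place of the library left out, at 270 and 267 RPKM in shNC replicates 1 and 2, 130 RPKM in shNC replicate 3 and 123, 122 and 131 RPKM in the shM5 libraries.

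Between the lines, 64 of 80 list genes (80%) were called against 65.6% of all genes, 25 higher in C18-4 and 39 lower, where all genes had 40.0% higher and 25.6% lower. As the lists were chosen with earlier results known, these shares only describe the lists. Bmp4 was at 18.2 to 25.4 RPKM in C18-4 shNC and listed at 0 in all 6 TM4 libraries, and Grem1 was at 41.7 to 103 RPKM in TM4 shNC and listed at 0 in the C18-4 shNC libraries. Of the latency and activation list, 13 genes were tested, and 3 were called higher and 8 lower in C18-4. On that list, Bgn was lower in C18-4 than in TM4 shNC libraries by a log2 difference of -3.09 (adjusted p = 9.57e-10). Ltbp2, of the latent TGF-beta binding protein family, was lower by -4.66 (adjusted p = 1.14e-09). Fn1 was lower in C18-4 by -6.07 (adjusted p = 6.39e-12) and Col1a2 by -10.24 (adjusted p = 1.98e-12), while Lox was higher by 9.56 (adjusted p = 3.27e-11), with TM4 levels of 0 to 0.07 RPKM. Bmp6 at 6.76, Pdgfb at 6.69 and the inhibin subunit gene Inhbb at -4.41 completed the 10 list genes with the lowest adjusted p. Smad4, the partner of SMAD2 and SMAD3, was at 35.8, 37.5 and 49.5 RPKM in C18-4 shNC and at 29.3, 28.9 and 24.0 RPKM in TM4 shNC libraries.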

How the data were processed

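RNA of C18-4 and TM4 cells was sequenced in 12 libraries (C18-4 shNC, C18-4 shM5, TM4 shNC and TM4 shM5, 3 each). The authors enriched mRNA with oligo(dT), sequenced it on an Illumina HiSeq, aligned reads to reference genes with SOAPaligner and deposited RPKM values with 2 decimals. The genome build is not given in the sources used here. RPKM holds no read numbers, so no count model was used and the sampling error of low values is unknown. Sequencing depth is unknown, and no interval that needs it is given. Groups and replicate numbers were taken from the sample titles.

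Genes that averaged 0.5 RPKM or more over the libraries compared were tested on log2(RPKM + 0.1) with limma 3.58.1 (R 4.3.3, trended empirical Bayes) and Benjamini-Hochberg adjustment, each line by itself for shM5 against shNC and all 12 libraries for the other comparisons. Fold changes are on the log2(RPKM + 0.1) scale and understate changes of low genes. Alternatives were a pseudocount of 1, no filter, median-ratio scaling, a replicate block, 1 model of all libraries, and libraries left out. In C18-4 cells, deviations from group means of same-numbered libraries correlated at 0.439, 0.409 and 0.631 over genes, and the numbers, taken from the titles, were treated as pairing. Replicates 1 and 2 also correlated across numbers (0.341 and 0.345). The main limma fits within each line and between the shNC groups were tested on simulated data with independent noise. The block, the difference of effects between the lines and the permutation tests were not. Sums, shares and ratios were compared by two-sided exact permutation tests (scipy 1.17.1).

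The members and lists were chosen with earlier results of these data known. List genes are named where called in a comparison, at most 10 in order of adjusted p, with 2 like genes for each member. Acta2, Lox, Ctgf, Bmp4, Grem1, Thbs1 and Smad4 are also given by library or range, chosen after their values were seen. Cyr61 and Ctgf are listed under older symbols.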

Additional observations from a re-analysis of the deposited data

Results flagged for a closer look

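Tgfbr2 was singled out because its shM5 libraries lay on opposite sides of shNC in the lines. How many of all genes did so was not counted. In C18-4 cells all 3 shM5 libraries (22.4 to 23.7 RPKM) lay below all 3 shNC libraries (27.5 to 28.6 RPKM), and in TM4 cells all 3 shM5 libraries (69.8 to 71.7 RPKM) lay above all 3 shNC libraries (64.2 to 66.5 RPKM). By limma neither change was called, at -0.28 in C18-4 (adjusted p = 0.161) and 0.11 in TM4 cells (adjusted p = 0.237, and 0.08 with an adjusted p of 0.404 after median-ratio scaling). The difference of the effects was 0.39 on the log2 scale and was not called (adjusted p = 0.118). Over the alternatives its adjusted p ranged from 0.00216, without TM4 shNC replicate 3, to 0.320, without TM4 shNC replicate 1, and the former was the only alternative run in which it was called. TM4 shNC replicate 3 is the control that lay near the shM5 libraries in these same data.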

How the results depend on the processing

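Among the 10 members in C18-4 cells, 0 were called with all libraries, 4 with the replicate block, 2 in 1 model of all 12 libraries and 5 without replicate 3 of both groups, and 0 with any single library left out. In TM4 cells 0 were called, but 7 without shNC replicate 3 and 7 without replicate 3 of both groups, and leaving out single libraries gave 0 to 7. For the difference between the lines this range was 0 to 6, and for the lines themselves 7 to 9. Of the pathway genes in C18-4 cells, 1 was called, against 0 with no filter, 23 with the block, 0 in the model of 12 libraries, 35 without replicate 3 of both groups and 0 to 5 with single libraries left out. In TM4 cells 0 became 56 without replicate 3 of both groups and ranged from 0 to 49 with single libraries left out. Same-numbered TM4 libraries correlated at 0.0729, 0.0489 and 0.127, so the numbers were not taken as pairing, and the block called 0 members and 0 pathway genes. With the block, 0 members were called for the difference between the lines and 7 between the lines, where Smad7 was lost (adjusted p = 0.0548).

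Directions turned for members with small changes. Tgfb1 in C18-4 cells went from -0.12 to 0.029 without replicate 3 of both groups and ranged from -0.26 to 0.13 with single libraries left out, and Skil there from -0.14 to 0.036. In TM4 cells Tgfbr1 became 0.037 and Tgfbr3 0.043 without replicate 3 of both groups, with ranges from -0.027 to 0.031 and from -0.060 to 0.050. Skil between the lines became 0.10 in the shM5 libraries. The causes were not tested. Over all genes, C18-4 calls went from 68 to 4 with no filter, 1386 with the block, 151 in the model of 12 libraries, 3029 without replicate 3 of both groups and 0 to 237 with single libraries left out. TM4 calls went from 0 to 7433 without shNC replicate 3 and 8016 without replicate 3 of both groups. Calls on the difference between the lines went from 12 to 27 with a pseudocount of 1, 21 with no filter, 5 after scaling, 2 with the block and 0 to 4477 with single libraries left out. Of the alternatives for single members, 513 kept direction and call, 36 gained a call, 10 lost one and 11 turned.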
